A study of Homo sapiens with 12 samples.

Results

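The 9 genes described here are those of the cadherin switch and its transcription factors: the cadherins CDH1, CDH2 and CDH3, the repressors SNAI1, SNAI2 and ZEB1, the mesenchymal filament gene VIM, and the epithelial regulators ESRP1 and GRHL2. They were chosen by name, with earlier results of these data known. All probes that the platform annotation gives to these symbols were taken. They make up 9 of the 20043 genes on the array and 11 of its 47313 probes. Messenger RNA was measured on 12 Illumina bead arrays of SK-OV-3 cells, an ovarian cancer line of human origin that carries extra copies of the receptor gene ERBB2. Cells transfected with a scrambled shRNA (shCTRL) or with an shRNA against IRF-1 (shIRF1) were profiled with or without CDDP for 24 hours, in 4 groups of 3 arrays. CDDP is cisplatin, a platinum drug that crosslinks DNA, and IRF-1, encoded by IRF1, switches on genes in answer to interferon. The sources used here give neither the dose of CDDP nor the number of shRNA sequences or clones. All 4 groups share the transfection, and the labels name no untransfected cells.

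An epithelial cell is held to its neighbours by E-cadherin, the product of CDH1, whose tail binds catenins that anchor the junction to actin. In the epithelial-mesenchymal transition (EMT) the repressors of the SNAIL and ZEB families (Snail from SNAI1, Slug from SNAI2, ZEB1) bind E-box motifs in the promoters of CDH1 and other epithelial genes and silence them. N-cadherin (CDH2) and the intermediate filament protein vimentin (VIM) are the usual marks of the mesenchymal state, while the splicing factor ESRP1 and the transcription factor GRHL2 keep the epithelial programme going. The surface epithelium of the ovary has features of both states, and ovarian cancer cells often express E-cadherin and N-cadherin side by side.

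The target of the shRNA was looked at before the 9 genes, as a check of the labels. By 1 probe, detected on every array, IRF1 had log2 levels of 8.30, 8.51 and 7.84 in shCTRL and 8.59, 8.14 and 8.20 in shIRF1. CDDP arrays had 9.97, 10.38 and 9.38 in shCTRL and 8.94, 9.08 and 9.26 in shIRF1. The untreated groups overlapped, and the treated ones did not. Without CDDP the difference was 0.10 (95% confidence interval -0.43 to 0.62, limma adjusted p = 0.902), so IRF1 was not measurably lower where it was targeted, and "shIRF1" below means the arrays labelled so. With CDDP the difference was -0.82 (limma adjusted p = 0.0811), and it passed the test without shCTRL CDDP array 3 (-1.08, limma adjusted p = 0.0209). CDDP raised IRF1 by 1.70 under shCTRL (limma adjusted p = 0.000105) and by 0.78 under shIRF1 (limma adjusted p = 0.0328). The rise under shIRF1 was lost without shIRF1 array 2 (0.70) or 3 (0.73) and without shIRF1 CDDP array 2 (0.79) or 3 (0.70).

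The arrays were alike in quality. Each detected 18075 to 21126 probes (38.2% to 44.7%), with a median signal of 89.1 to 101, and arrays of the same group correlated at 0.970 to 0.986. Of the 9 epithelial markers looked at, all 9 were tested and EPCAM, KRT7, KRT8, KRT19, MUC1 and CLDN3 were detected on all 12 arrays. KRT18 was detected on 11, CLDN7 on 8 and CLDN4 on 7, and ERBB2 on all 12 (log2 level 10.79 to 12.63). The fibroblast genes COL3A1, THY1 and FAP were detected on 0 of 12 arrays, but COL1A1 on 12, LUM on 9, COL1A2 on 4, DCN on 2 and PDGFRB on 1. The endothelial genes VWF, CDH5, KDR and EMCN were detected on 0, PECAM1 on 3 and TIE1 on 2. Of the leukocyte genes, CD3E and NKG7 were detected on 0, PTPRC on 1, LST1 on 3, CD79A on 5 and CD14 on 10. CD68, a lysosomal gene listed with the leukocytes, was detected on all 12. The summed linear level of the leukocyte markers was 1037 to 1164 in shCTRL and 763 to 1060 in shIRF1, and 1199 to 1338 and 944 to 1094 with CDDP, and its part in the results below was not tested. Separate cultures are not stated by the labels, so a p-value here reflects the spread among these samples alone, and that spread may be technical.

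E-cadherin messenger RNA was far higher in shIRF1 than in shCTRL and fell with CDDP under both shRNAs. SNAI2, its repressor, did the reverse in each comparison. N-cadherin was lower in shIRF1 and fell with CDDP as well, so it did not trade places with E-cadherin under the drug. Vimentin stayed near the top of the range on every array. ESRP1, GRHL2, CDH3 and ZEB1 were at background, and SNAI1 was close to it.

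Detection came from the deposited detection p-value, which sets a probe against its array's negative controls, with a threshold of 0.05. A level is a log2 intensity after background correction and quantile normalization, and a probe's level cannot be set against that of another probe. Detected probes began at a level between 4.78 and 4.99 on the 12 arrays. A difference was called if limma's two-sided p-value was under 0.05 after Benjamini-Hochberg adjustment across the 17988 features tested. Of the 9 genes, 5 were detected on at least 3 arrays and tested. Without CDDP, 1 of those 5 was higher in shIRF1, 2 were lower and 2 were not called, where 3.1% of all features were called higher and 2.75% lower (5.84% in all). With CDDP the count was again 1 higher, 2 lower and 2 not called, beside 1.65% and 2.2% of all features (3.85%). CDDP under shCTRL gave 1 higher and 2 lower beside 13.5% and 13.5% (27%), and CDDP under shIRF1 gave 1 higher and 2 lower beside 10.5% and 11.5% (22%). The 4 comparisons share arrays in pairs, so they are not independent of each other.

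**Figure D1:**
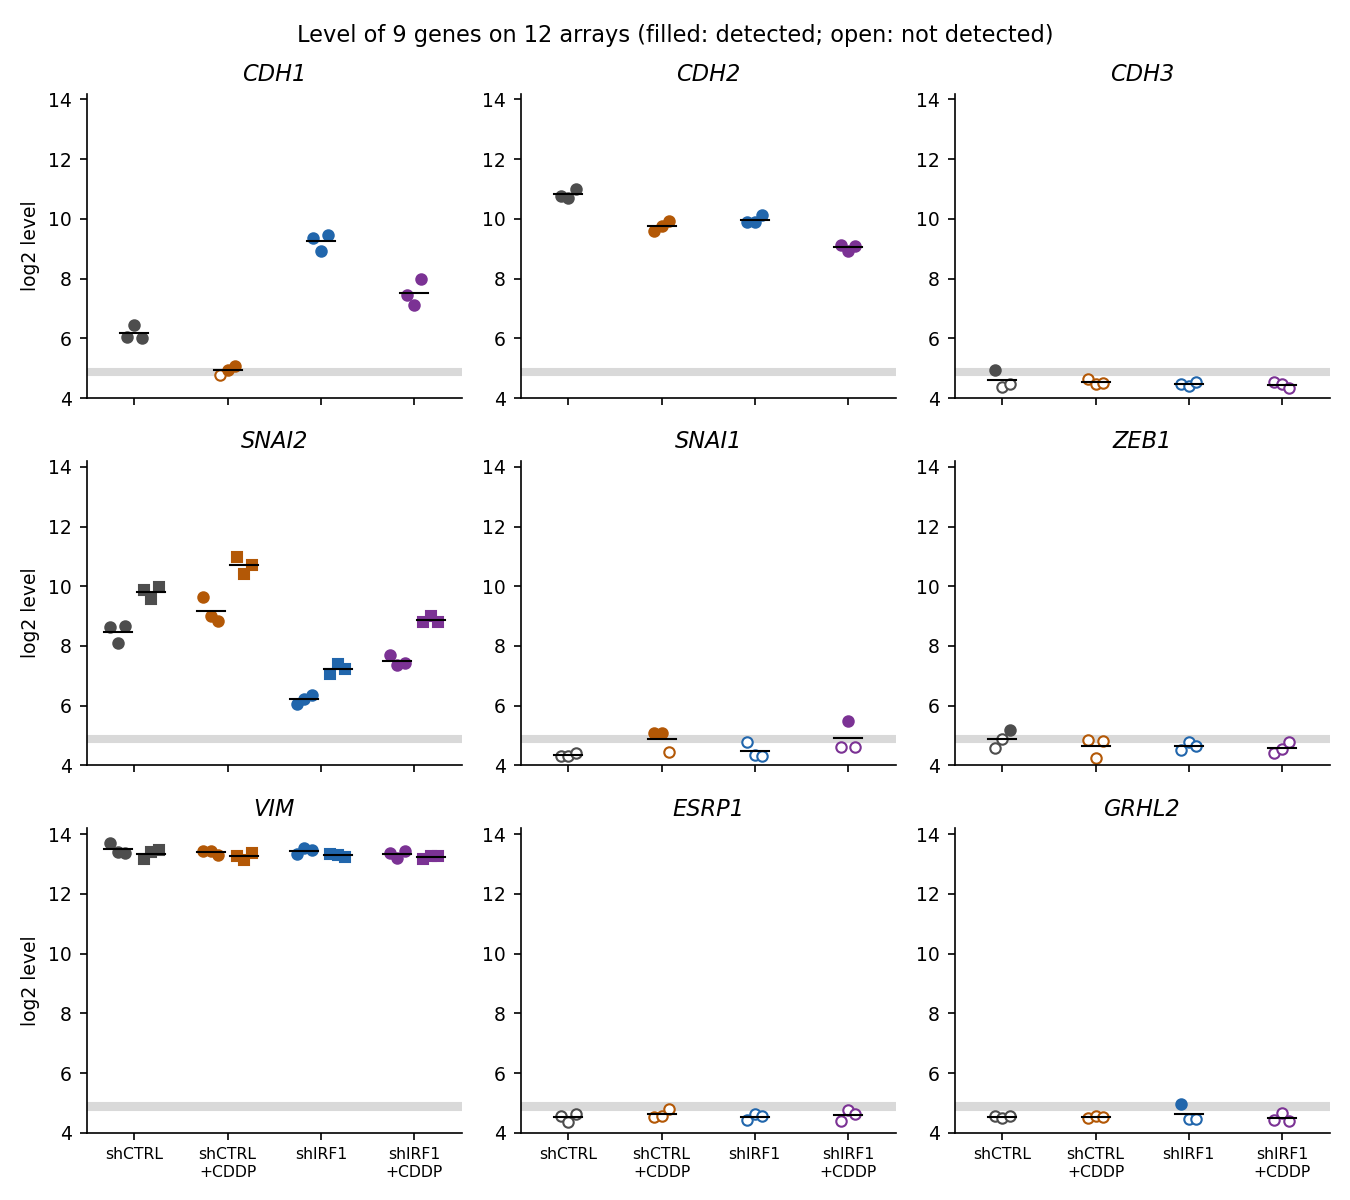
Log2 level of each of the 9 genes on the 12 arrays, by group, with a bar at the group mean. Filled symbols are detected and open ones are not, the grey band spans the lowest levels of detected probes (4.78 to 4.99), and where a gene has 2 probes each has its own shape, with squares for the tested probe of SNAI2 and circles for the tested probe of VIM. The 4 groups of CDH1 and of SNAI2 do not overlap, in opposite order, while VIM lies at the top in every group and CDH3, ZEB1, ESRP1 and GRHL2 lie in or near the grey band.

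Of the cadherins, CDH1 was measured by 1 probe (ILMN_1770940), which 11 of 12 arrays detected. Its log2 level was 6.06, 6.44 and 6.01 in shCTRL and 9.37, 8.94 and 9.47 in shIRF1. With CDDP it was 4.78, 4.94 and 5.06 in shCTRL, where 2 of the 3 arrays detected it, and 7.46, 7.10 and 7.98 in shIRF1. The groups did not overlap in any of the comparisons, and they ran from shIRF1 at the top through shIRF1 with CDDP and shCTRL down to shCTRL with CDDP. Among all features, the groups did not overlap for 25.1% and 21.2% between the shRNAs without and with CDDP, and for 40.2% and 36.9% between CDDP and none under shCTRL and shIRF1. On the scanner's own linear scale the signal was 127, 150 and 156 in shCTRL against 566, 548 and 868 in shIRF1, before any correction for background. With CDDP the signal was 91.7, 105 and 103 in shCTRL and 189, 238 and 394 in shIRF1.

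Without CDDP the group means of CDH1 were 6.17 ± 0.23 in shCTRL and 9.26 ± 0.28 in shIRF1 (SD, n = 3 each). The difference of 3.09 (SE 0.23, interval 2.60 to 3.57) is an 8.50-fold higher level in shIRF1, with a limma adjusted p of 1.48e-06. Without background correction the difference was 2.13, below that interval, and from the authors' series matrix it was 2.49, and both were called. The groups with CDDP had means of 4.93 ± 0.14 and 7.52 ± 0.44 (SD, n = 3 each), and CDH1 was 6.02-fold higher in shIRF1 (log2 2.59, SE 0.23, limma adjusted p = 6.81e-06). In these bulk samples, more cells that express CDH1 and more CDH1 messenger RNA per cell cannot be told apart.

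With CDDP under shCTRL, CDH1 fell by 1.24 (SE 0.23), a 2.37-fold fall (limma adjusted p = 0.000742). Under shIRF1 it fell by 1.74 (SE 0.23), a 3.34-fold fall (limma adjusted p = 5.44e-05). The responses under the shRNAs differed by -0.50 (interval -1.18 to 0.19, limma adjusted p = 0.740), a difference that did not pass. Under the alternatives listed at the end, this difference of responses ran from -0.91 to -0.29 and did not pass in any. The change under shIRF1 ran from -1.97 to -1.36 there. Like the difference without CDDP, the pairwise differences that involve shCTRL with CDDP, a group at the detection limit, became smaller when background was not removed. Without background correction the change with CDDP under shCTRL was -0.45 and the difference between the shRNAs with CDDP was 1.22. From the authors' series matrix they were -0.65 and 1.62, and all of these were still called.

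CDH2 was measured by 1 probe (ILMN_1779228), which every array detected, with log2 levels of 10.76, 10.72 and 10.99 in shCTRL and 9.90, 9.90 and 10.12 in shIRF1. With CDDP it was 9.58, 9.78 and 9.94 in shCTRL and 9.12, 8.91 and 9.10 in shIRF1. The arrays of shCTRL stood above all others and those of shIRF1 with CDDP below all others, while shIRF1 and shCTRL with CDDP overlapped. Without CDDP, CDH2 was 1.80-fold lower in shIRF1 (log2 -0.85, SE 0.17, limma adjusted p = 0.00612). With CDDP it was 1.65-fold lower (-0.72, SE 0.17, limma adjusted p = 0.0254).

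That last call was narrow. It was lost when shCTRL CDDP array 2 (-0.72) or 3 (-0.64) or shIRF1 CDDP array 1 (-0.76), 2 (-0.65) or 3 (-0.75) was left out, and when only these groups entered the fit, with limma adjusted p-values of 0.0533 to 0.0986. With CDDP, CDH2 fell by 1.06 under shCTRL (2.08-fold, limma adjusted p = 0.000238). Under shIRF1 it fell by 0.93 (1.91-fold, limma adjusted p = 0.00088). The difference between these responses was 0.13 (interval -0.38 to 0.63, limma adjusted p = 0.925). With arrays scaled to a common median in place of quantiles, the shIRF1 differences (limma adjusted p = 0.110 without and 0.236 with CDDP) and the fall under shIRF1 (0.0521) were not called. CDH1 and CDH2 thus differed in opposite directions between the shRNAs and fell together with CDDP.

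CDH3, the gene of P-cadherin, lies next to CDH1 in the RefSeq annotation. Its probe was detected on 1 of 12 arrays, an shCTRL array, with levels of 4.34 to 4.94 throughout. The neighbouring gene therefore had no measurable level in the groups where CDH1 was high, and its change could not be tested.

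**Figure D2:**
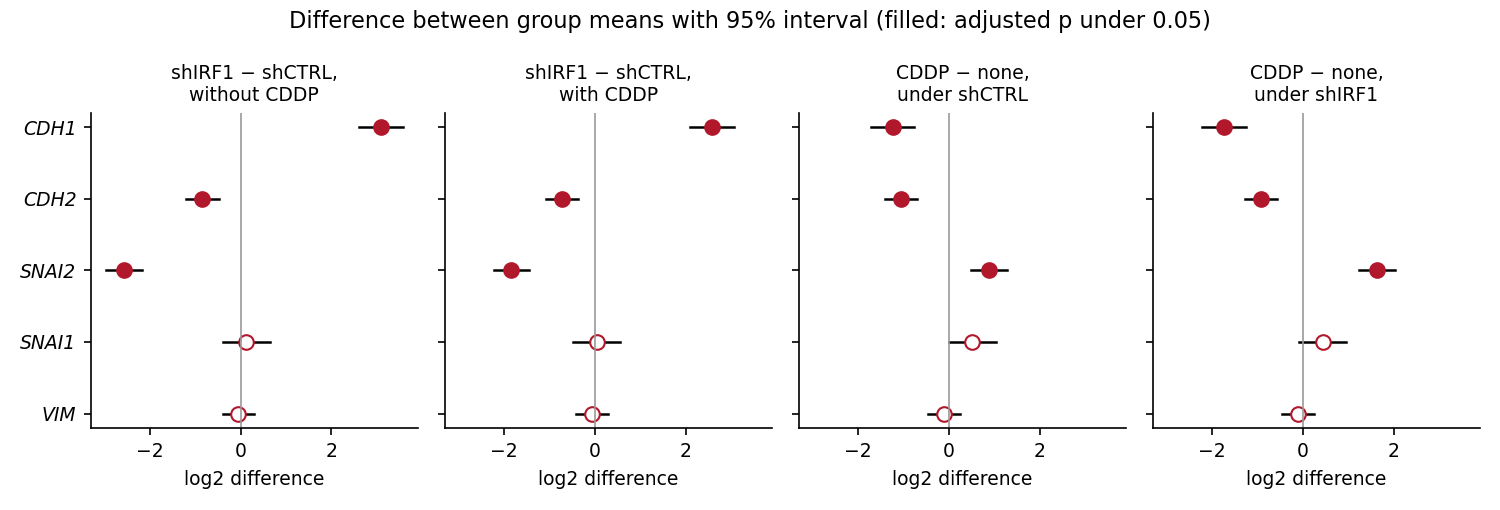
Difference between group means (log2, horizontal axis) with its 95% confidence interval for the 5 tested genes, 1 panel for each comparison and filled where limma's adjusted p was under 0.05. CDH1 and SNAI2 lie on opposite sides of 0 in all 4 panels, CDH2 lies below 0 in all 4, and VIM and SNAI1 are open in all 4.

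Of the repressors, SNAI2 was measured by 2 probes, both detected on all 12 arrays. On the brighter one (ILMN_2082585), used for the tests, the log2 level was 9.89, 9.56 and 9.97 in shCTRL and 7.08, 7.38 and 7.22 in shIRF1. With CDDP it was 10.97, 10.43 and 10.70 in shCTRL and 8.80, 8.99 and 8.79 in shIRF1. No groups overlapped, and their order was that of CDH1 turned upside down: shCTRL with CDDP at the top, then shCTRL, then shIRF1 with CDDP, and shIRF1 at the bottom. CDDP brought SNAI2 in shIRF1 up, but to a level still below that of untreated shCTRL.

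SNAI2 was 5.98-fold lower in shIRF1 without CDDP (log2 -2.58, SE 0.19, limma adjusted p = 1.25e-06) and 3.58-fold lower with CDDP (-1.84, limma adjusted p = 2.71e-05). CDDP raised it 1.86-fold under shCTRL (0.89, limma adjusted p = 0.00200) and 3.10-fold under shIRF1 (1.63, limma adjusted p = 1.58e-05). The rise under shIRF1 exceeded that under shCTRL by 0.74 (interval 0.18 to 1.30). Its unadjusted limma p was 0.0129, but adjusted over all features it did not pass (0.475), nor did that of CDH1, CDH2, SNAI1 or VIM, where 0.0667% of features were called.

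The further SNAI2 probe (ILMN_1655740) gave the same directions. Its levels were 8.65, 8.10 and 8.67 in shCTRL, 6.05, 6.21 and 6.38 in shIRF1, 9.65, 9.02 and 8.83 in shCTRL with CDDP and 7.69, 7.35 and 7.43 in shIRF1 with CDDP. With every detected probe tested on its own, the differences of SNAI2 on this probe were -2.26 and -1.67 in shIRF1 without and with CDDP (limma adjusted p = 2.36e-05 and 0.000562). It rose with CDDP by 0.69 under shCTRL and by 1.28 under shIRF1 (limma adjusted p = 0.0358 and 0.000842). The rise of this probe under shCTRL was not called when undetected probes were tested too (limma adjusted p = 0.0648). The rise under shCTRL is the smaller on both probes.

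SNAI1, the gene of Snail, was barely measured. Its probe was detected on 2 shCTRL arrays with CDDP (5.07 and 5.08) and 1 shIRF1 array with CDDP (5.48), while the other 9 arrays lay between 4.32 and 4.77. It was tested and not called in any comparison (limma adjusted p = 0.867 and 0.950 for shIRF1 without and with CDDP, and 0.136 and 0.238 for CDDP under shCTRL and shIRF1). Without shCTRL CDDP array 3, the 1 treated shCTRL array that did not detect it, CDDP under shCTRL was called (0.72, limma adjusted p = 0.0484). SNAI1 passed the detection filter through CDDP arrays alone, so that call is no independent support for a rise. ZEB1 was detected on 1 array, of shCTRL, at 4.26 to 5.19 overall. SNAI2 was thus the 1 repressor of these 3 whose probes lay well above background. SNAI1 and ZEB1 rest on 1 probe each, and the repressors cannot be ranked by these levels.

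VIM was measured by 2 probes at the bright end of the arrays. The tested one (ILMN_1782538) lay at 13.69, 13.42 and 13.38 in shCTRL, 13.34, 13.52 and 13.46 in shIRF1, 13.44, 13.44 and 13.29 in shCTRL with CDDP and 13.37, 13.19 and 13.42 in shIRF1 with CDDP. All 4 groups overlapped. The differences were -0.06 for shIRF1 without CDDP (interval -0.40 to 0.29, limma adjusted p = 0.915), -0.06 with CDDP (0.886), and -0.11 for CDDP under each shRNA (0.682 under shCTRL and 0.703 under shIRF1). The further probe gave -0.09 to -0.03 and was not called either. The signal of the tested probe was 64.5% to 92.9% of the brightest probe of its array, a range in which bead signals can flatten, and whether they did was not tested.

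The epithelial regulators ESRP1 and GRHL2 lay at or near background in all groups, those with high CDH1 included. ESRP1, which splices epithelial isoforms, was detected on 0 of 12 arrays (levels 4.37 to 4.79). GRHL2, an activator of CDH1 in epithelia, was detected on 1 shIRF1 array (levels 4.39 to 4.96). With all probes tested, detected or not, neither these genes nor CDH3 and ZEB1 were called in any of the 4 comparisons, and the lowest limma adjusted p was 0.574, for ZEB1 with CDDP under shCTRL.

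**Figure D3:**
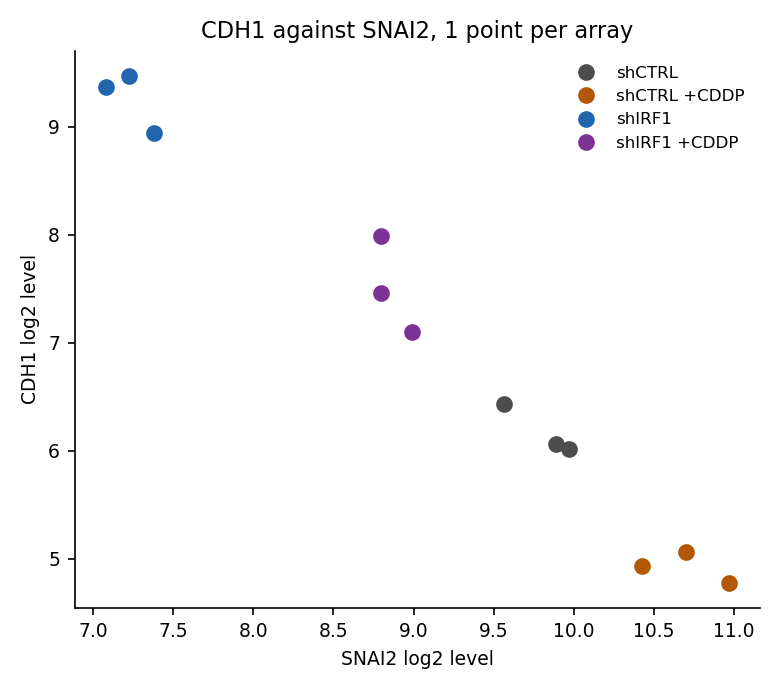
Log2 level of CDH1 (vertical axis) against that of SNAI2 (horizontal axis, tested probe), 1 point per array, coloured by group. The 4 groups form 4 separate clusters, from shIRF1 with CDH1 at 8.94 to 9.47 and SNAI2 at 7.08 to 7.38, to shCTRL with CDDP with CDH1 at 4.78 to 5.06 and SNAI2 at 10.43 to 10.97.

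Because the 4 groups stood apart in both genes, no pooled correlation of CDH1 with SNAI2 is given, and a group of 3 is too small for one within it. Likeness was described instead by the root mean square difference of the array values, each gene centred on its own mean, over 12 arrays that share their groups and normalization. Both genes were chosen with earlier results of these data known, so a rank of either only describes these arrays and is no independent evidence of a link. With the sign turned, SNAI2 was the nearest to CDH1 of 12491 named genes (0.39 on the log2 scale, where the values of CDH1 themselves had a root mean square of 1.63). After it came SPANXA1, a cancer-testis antigen gene of a family of near-identical copies, the sphingosine kinase gene SPHK1, CGB5, a chorionic gonadotropin gene that also has near-identical copies, and FAM83A (0.48 to 0.65). In the other direction CDH1 ranked 7 among the genes nearest to SNAI2 turned, after the carbonic anhydrase gene CA12 (0.31), the potassium channel gene KCNJ16, CAVIN2, the decoy receptor gene TNFRSF11B, the glycine decarboxylase gene GLDC and 1 other.

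Nearest to CDH1 without turning the sign were PCCA, a subunit of propionyl-CoA carboxylase, WDR72, the adhesion receptor gene ADGRG1, CA12 and GLDC (0.47 to 0.60). In shIRF1 without CDDP these 5 were 2.01 to 2.91 higher on the log2 scale. Nearest to SNAI2 were SPHK1, FAM43A, SPANXA1, the Notch glucosyltransferase gene POGLUT1 and G0S2, a regulator of fat breakdown (0.40 to 0.47), with differences of -2.69 to -1.56 there. Of all 17988 features, 111 (0.617%) were called in all 4 pairwise comparisons. Of these, 45 (0.25% of all) were called higher in shIRF1 in both comparisons and lower with CDDP in both, as CDH1 was, among them the epithelial genes MUC1, PKP2 and RBM47, the homeobox gene PRRX2 and the matrix gene FBLN2. The pattern of SNAI2 was found in 29 features (0.161%) and that of CDH2, lower in all 4 comparisons, in 27 (0.15%). These comparisons share arrays, and the patterns are given as counts alone.

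The epithelial genes beside CDH1 were split. Without CDDP, 5 of 31 tested junction and surface genes were higher in shIRF1, 2 were lower and 24 were not called. Over all features 3.1% were called higher and 2.75% lower, and the list median was 0.25 against 0.00203. The tight junction gene CLDN3 went from 6.02 ± 0.40 to 8.25 ± 0.12 (SD, n = 3 each), a rise of 2.23 (limma adjusted p = 8.34e-05). The apical polarity gene CRB3 went from 6.04 ± 0.17 to 7.64 ± 0.08 (SD, n = 3 each), a rise of 1.60 (limma adjusted p = 0.00029), and its further probe was 1.32 higher (0.00609). PKP2, a plaque protein of desmosomes, rose by 1.48 and the mucin gene MUC1 by 1.16, and the protease inhibitor gene SPINT1 was at least 1.58-fold higher, since no shCTRL array detected it. The surface antigen gene CD24 (-0.86) and the desmosomal cadherin gene DSG2 (-0.77) were lower.

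With CDDP the same comparison had 4 of 31 higher, 2 lower and 25 not called (median 0.20), beside 1.65% and 2.2% of all features. Those higher in shIRF1 were PKP2 (1.80), CLDN3 (1.54), CRB3 (1.27) and MUC1 (1.04), and those lower were CD24 (-0.82) and the desmosomal cadherin gene DSC2 (-0.72). Without CDDP 1 further MUC1 probe was called (1.45, limma adjusted p = 0.00448) and another was not (1.37, 0.0560), and with CDDP neither was (0.82 and 0.92, limma adjusted p = 0.118 and 0.230). EPCAM, an adhesion protein of epithelial cells, was 0.84 higher without CDDP on the probe used and was not called (limma adjusted p = 0.0547), while its other probes were called (1.16 and 0.87, limma adjusted p = 0.0130 and 0.0452). The summed level of the 9 epithelial markers on the linear scale was 11140 to 12760 in shCTRL and 14940 to 17320 in shIRF1. With CDDP it was 6119 to 7676 and 7221 to 9696, so that it was lower with CDDP, while the shRNAs overlapped there and shIRF1 with CDDP lay below untreated shCTRL, where CDH1 lay above it. Its part in the CDH1 result was not tested.

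CDDP lowered 7 of the 31 under shCTRL and raised 4 (median -0.18, against 0.04 over all features), beside 13.5% and 13.5% of all features. It lowered 6 and raised 1 under shIRF1 (median -0.08 against 0.02), beside 11.5% and 10.5%. The share raised under shCTRL was thus near that of all features. Under shCTRL and shIRF1 in turn, the keratin gene KRT19 (-2.17 and -1.98) and PKP2 (-1.49 and -1.17) fell. LSR, a receptor of tricellular junctions, rose by 0.97 under shCTRL, and PKP3 fell by 0.91. Under shIRF1 the cornified envelope gene PPL (-1.53) and MUC1 (-0.97) fell. CRB3 was not called with CDDP under either shRNA (0.03 and -0.30, limma adjusted p = 0.939 and 0.379).

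Among epithelial transcription and splicing factors, 4 of 10 tested were higher in shIRF1 without CDDP, 0 were lower and 6 were not called (median -0.12). The shares of all features higher and lower there were 3.1% and 2.75%. The 4 higher were the ETS factors ELF3 (1.57) and EHF (1.55), the RNA-binding protein gene RBM47 (1.39) and the pioneer factor FOXA1 (0.90). With CDDP 2 of 10 were higher, RBM47 (1.70) and EHF (1.52), and 0 lower (median 0.21), beside 1.65% and 2.2% of all features. All 3 probes of RBM47 were called in both comparisons. With CDDP, RBM47 fell under shCTRL and shIRF1 (-2.09 and -1.78). KLF4, a factor that activates CDH1 in breast epithelium, rose under both (2.95 and 2.61), and its part in the CDH1 result was not tested. In all CDDP raised 3 and lowered 3 of the 10 under shCTRL (ELF3 rose by 1.05 and FOXA2 fell by 1.02), beside 13.5% and 13.5% of all features. It raised 1 and lowered 2 under shIRF1 (OVOL2 fell by 0.73), beside 10.5% and 11.5%.

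**Figure D4:**
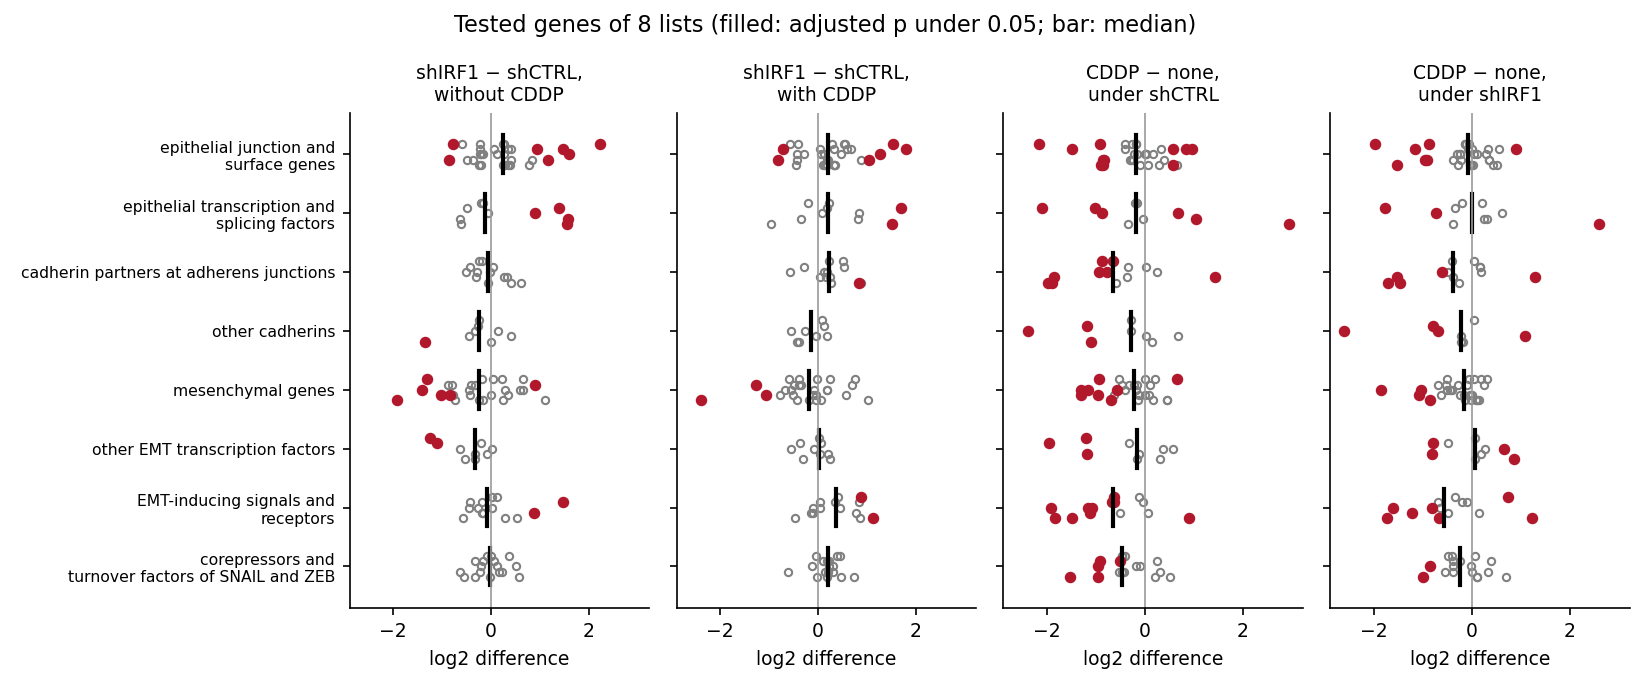
Log2 difference of each tested gene of 8 lists (1 row per list, 1 panel per comparison), filled red where limma's adjusted p was under 0.05, with a black bar at the list median. Without CDDP the called epithelial junction genes lie at -0.86 to 2.23 and the called mesenchymal genes at -1.92 to 0.90, and the panels for CDDP hold called genes on the lower side in all 8 lists.

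Most mesenchymal genes beside CDH2 were not called after adjustment. Without CDDP, 5 of 27 tested were lower in shIRF1, 1 was higher and 21 were not called, where 2.75% of all features were lower and 3.1% higher (median -0.26, against 0.00203 over all features). An unadjusted limma p under 0.05 was found for 16 of 27, and for 17.1% of all features. Of the 27 differences, 17 were negative and 10 positive. The matrix genes SPARC (-1.92), THBS1 (-1.41) and COL1A1 (-1.31) were lower. The gelatinase gene MMP2 was at least 1.50-fold and the fibrillin gene FBN1 at least 1.59-fold lower, with no shIRF1 array detecting them, and the collagen gene COL6A1 was at least 1.81-fold higher. With CDDP 3 of 27 were lower and 0 higher (median -0.18), beside 2.2% and 1.65% of all features. Those lower were SPARC (-2.40), the ectonucleotidase gene NT5E (-1.27) and MMP2, at least 1.57-fold. With CDDP an unadjusted limma p under 0.05 was found for 12 of 27, and for 18.2% of all features. The summed level of 8 fibroblast markers was 184 to 238 in shCTRL and 147 to 240 in shIRF1 without CDDP, and 147 to 188 and 157 to 208 with it, ranges that overlapped.

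CDDP lowered 7 of the 27 under shCTRL and raised 1 (median -0.22), beside 13.5% and 13.5% of all features. It lowered 4 and raised 0 under shIRF1 (median -0.15), beside 11.5% and 10.5%. THBS1 (-1.31), the proteoglycan gene VCAN (-1.31) and the myosin kinase gene MYLK (-1.17) fell under shCTRL. Under shIRF1 MYLK (-1.85), VCAN (-1.08), COL5A2 (-1.04) and the smooth muscle actin gene ACTA2 (-0.85) fell. SPARC, lower in shIRF1 like SNAI2, was not called with CDDP under either shRNA (0.46 and -0.01, limma adjusted p = 0.314 and 0.990).

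Of 9 other EMT transcription factors tested, 2 were lower in shIRF1 without CDDP and 0 higher (median -0.33), beside 2.75% and 3.1% of all features. TWIST2 was lower (-1.10), and PRRX1 was at least 1.94-fold lower, undetected in shIRF1. PRRX1 was detected on the 3 untreated shCTRL arrays and on no other, so it passed the detection filter through that group alone. Its calls here and with CDDP under shCTRL rest on that choice and are no independent support. With CDDP 0 of 9 were called by limma (3.85% of all features), and 1 had an unadjusted p under 0.05 (18.2% of all features, list median 0.02). CDDP lowered 3 and raised 0 under shCTRL (median -0.16), beside 13.5% and 13.5% of all features. It lowered 2 and raised 2 under shIRF1 (median 0.07), beside 11.5% and 10.5%. Under shCTRL TWIST2 (-1.96), PRRX1 (at least 1.90-fold) and the E-box binding factor TCF3 (-1.18) fell. Under shIRF1 TCF3 (-0.81) and TWIST2 (-0.78) fell and ETS1 (0.87) and TWIST1 (0.66) rose. SNAI2 thus rose with CDDP where TWIST2 fell.

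Of 13 cadherin partners tested, 0 were called by limma in shIRF1 without CDDP, beside 5.84% of all features. An unadjusted p under 0.05 was found for 1 (median -0.06), and for 17.1% of all features. With CDDP 1 was higher and 0 lower, the catenin relative PKP4 (0.84, median of the list 0.22), beside 1.65% and 2.2% of all features. CDDP lowered 7 of them under shCTRL and 4 under shIRF1, and raised 1 under both, CBLL1 (1.44 and 1.29), which encodes the ubiquitin ligase Hakai that takes E-cadherin off the surface. Under shCTRL and shIRF1 in turn, ADAM10, a protease that sheds E-cadherin (-1.99 and -1.71), PKP4 (-1.90 and -1.46) and the junction protein gene PLEKHA7 (-1.86 and -1.52) fell. The list medians were -0.65 and -0.39. CDDP lowered 13.5% of all features under shCTRL and 11.5% under shIRF1, and raised 13.5% and 10.5%.

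Of 8 other cadherins tested, 1 was lower in shIRF1 without CDDP and 0 higher, beside 2.75% and 3.1% of all features. The lower one was the osteoblast cadherin gene CDH11, at least 2.05-fold (list median -0.25). With CDDP 0 were called by limma (3.85% of all features), and 1 had an unadjusted p under 0.05 (18.2% of all features, list median -0.15). CDDP lowered 3 and raised 0 under shCTRL (median -0.28), beside 13.5% and 13.5% of all features. It lowered 3 and raised 1 under shIRF1 (median -0.23), beside 11.5% and 10.5%. The kidney cadherin gene CDH6 fell under both (-2.39 and -2.61). CDH18 (-1.18) and CDH11 (-1.11) fell under shCTRL, and under shIRF1 CDH18 (-0.79) and CDH16 (-0.69) fell and CDH24 (1.09) rose.

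Among 14 genes of the signals that induce EMT, which take in the inhibitors SMAD6 and SMAD7, 2 were higher in shIRF1 without CDDP and 0 lower. They were WNT5A (1.48) and the TGF-beta receptor gene TGFBR2 (0.88). The list median was -0.07, and 3.1% of all features were higher and 2.75% lower. With CDDP the transducer gene SMAD3 (1.13) and the ligand gene TGFB2 (at least 1.71-fold) were higher and 0 were lower (median 0.38). The shares of all features there were 1.65% and 2.2%. CDDP lowered 9 of the 14 under shCTRL, SMAD6 (-1.08) and SMAD7 (-0.67) included, and raised 1 (median -0.65), with TGFBR3 (-1.91), EGFR (-1.84), SMAD3 (-1.50) and MET (-1.17) the furthest. Under shIRF1 it lowered 5 and raised 2 (median -0.57), among them EGFR (-1.73), TGFBR3 (-1.61) and TGFBR2 (-1.22), while the ligand gene TGFB3 rose by 1.22. The shares of all features lowered and raised were 13.5% and 13.5% under shCTRL and 11.5% and 10.5% under shIRF1.

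Corepressors and turnover factors of the SNAIL and ZEB proteins were not called by limma in shIRF1 in either comparison (0 of 17, medians -0.01 and 0.20). Of all features, 5.84% and 3.85% were called there. An unadjusted p under 0.05 was found for 4 of 17 in each, and for 17.1% and 18.2% of all features. CDDP lowered 5 of 17 under shCTRL and 2 under shIRF1 (medians -0.46 and -0.25), beside 13.5% and 11.5% of all features. It raised 0 under both, beside 13.5% and 10.5%. The kinase gene GSK3B, which marks Snail for destruction, fell under shCTRL and shIRF1 (2.91-fold and 2.00-fold), as did the corepressor gene CTBP1 (-0.96 and -0.86). Under shCTRL AJUBA (-0.96) and CTBP2 (-0.92) also fell.

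Further detected probes of some genes named in these lists did not pass where the probe used did. Between the shRNAs this held for 1 further probe each of DSG2, CD24, SPINT1 and PKP4, and for TGFBR2 (0.76, limma adjusted p = 0.0597). With CDDP it held for EGFR (-0.23 and -0.30), LSR, MYLK under shCTRL (-0.12), CTBP1 under shIRF1, CTBP2, AJUBA and PKP4 under shCTRL (-0.24). A further probe of PKP3 had the other sign under shCTRL (0.23, limma adjusted p = 0.474).

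**Figure D5:**
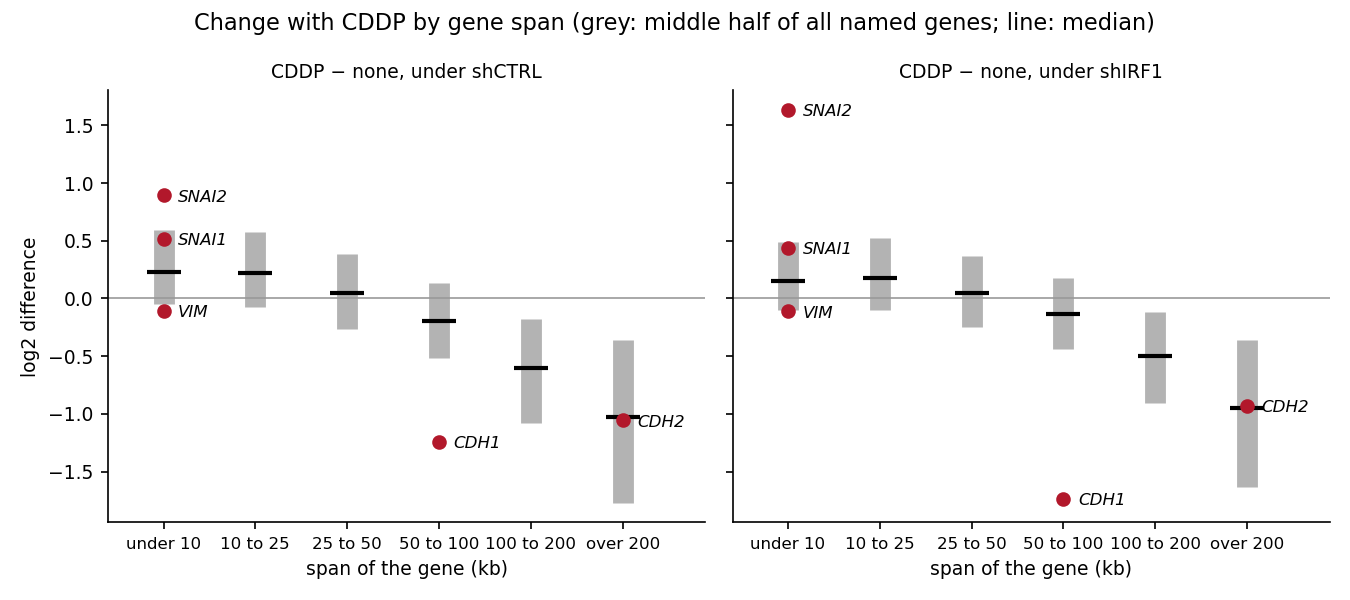
Log2 change with CDDP (vertical axis) of the 5 tested genes, in red, at the bin of their genomic span in kilobases (horizontal axis), over the quartile range (grey) and median (black line) of all named genes in each bin, under shCTRL and shIRF1. The medians run from 0.23 to -1.03 and from 0.15 to -0.95, and CDH2 lies at the median of the longest bin. CDH1 and SNAI2 lie outside the grey ranges of their bins, and VIM lies slightly below that of its bin.

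Platinum adducts in a transcribed gene are known to block RNA polymerase, and the change with CDDP was set beside the genomic span of each gene in RefSeq. The median change of named genes ran from 0.23 under shCTRL and 0.15 under shIRF1 for spans under 10 kb to -1.03 and -0.95 for spans over 200 kb. CDH2 spans 244.3 kb, and its changes of -1.06 and -0.93 lay near those medians: 48.7% and 50.9% of the 784 genes of that bin fell further. CDH1 spans 98.25 kb, in a bin of 50 to 100 kb whose medians were -0.20 and -0.13. Of its 1974 genes, 2.63% and 0.304% had a lower change than CDH1. The share under shCTRL rests on a treated group at the detection limit and was not recomputed without background correction, where the change of CDH1 was -0.45. SNAI2 spans 3.832 kb, and 87% and 97.6% of the 3065 genes under 10 kb had a lower change than it. The corresponding shares for VIM, at 9.353 kb, were 20.5% and 23.7%. Under shCTRL, CDDP lowered 3.46% of genes under 10 kb, 49.6% of those of 100 to 200 kb and 64.7% of those over 200 kb. Under shIRF1 these shares were 4.08%, 41.4% and 63.6%. The genes of the 8 lists were set beside all features and not beside genes of like span. Whether span had a part in any of these changes, or in the falls within the lists, was not tested.

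RefSeq promoter entries (GRCh38.p14) were used for 3 of the 9 genes, CDH2, VIM and ZEB1. The E-box that SNAIL and ZEB proteins bind was searched as CAGGTG on both strands (CACCTG on the other) in the 250 bases before each start. A match was found in 6143 of 35116 windows of this length (17.5%), and 26 (0.074%) held at least 5. Shown are the windows of CDH2 and VIM, the members with an entry that every array detected. That of CRB3, an epithelial gene higher in shIRF1, was picked after its values were seen. Of the genes whose matches are given below, CRB3 had the most (5), while CLDN3, also higher in shIRF1, had 0. CRB3 was not called with CDDP under either shRNA. Whether SNAI2 acts on any of these windows was not tested. The capitals mark the E-box, on either strand.
CDH2, chr18:28177131-28177380, minus strand: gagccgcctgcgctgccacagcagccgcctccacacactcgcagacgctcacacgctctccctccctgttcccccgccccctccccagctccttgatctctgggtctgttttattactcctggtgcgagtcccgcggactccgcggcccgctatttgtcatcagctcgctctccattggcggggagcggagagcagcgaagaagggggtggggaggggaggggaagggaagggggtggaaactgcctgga
VIM, chr10:17227991-17228240, plus strand: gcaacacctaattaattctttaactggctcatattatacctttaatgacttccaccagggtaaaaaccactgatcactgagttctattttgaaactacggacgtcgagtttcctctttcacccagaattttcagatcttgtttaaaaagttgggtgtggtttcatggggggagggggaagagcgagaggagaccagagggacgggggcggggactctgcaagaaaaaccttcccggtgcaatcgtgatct
CRB3, chr19:6464021-6464270, plus strand: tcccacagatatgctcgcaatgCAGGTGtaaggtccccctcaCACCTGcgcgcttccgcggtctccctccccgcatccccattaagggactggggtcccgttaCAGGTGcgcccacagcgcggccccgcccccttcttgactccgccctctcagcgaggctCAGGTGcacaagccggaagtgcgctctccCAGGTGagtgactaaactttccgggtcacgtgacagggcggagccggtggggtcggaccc

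The CRB3 window held 5 matches, while 0 were found in the VIM window and in both windows of CDH2. ZEB1 had a match in 2 of its 7 windows. Among the other epithelial genes higher in shIRF1, MUC1 had a match in both of its 2 windows, SPINT1 in 1 of 2, and CLDN3 in 0. Among those lower there, DSG2 had 2 matches in its window, CD24 had a match in 1 of 3 windows and DSC2 in 1 of 2. A match describes the letters of the reference sequence and was not measured here as a bound site.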

How the data were processed

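Messenger RNA of 12 SK-OV-3 samples was hybridised as biotinylated cRNA, 1 array per sample, per the labels' protocols, and the arrays were read with BeadStudio 2, per the submitters' processing notes. The deposited table holds, per the file headers, an intensity for each of 47313 probes on a linear scale, not normalized, with a detection p-value beside it. The authors' series matrix, used as an alternative, holds a linear rescaling of each array's intensity (r = 1 with the table, factor 1.37 to 2.66, constant -116 to -14.2), and the sources used here do not say what set it. Its direction and linear scale follow from that relation. Column medians of the matrix were 116 to 132. All columns belonged to the 12 samples.

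Of the probes, 30109 had 1 gene symbol in the platform annotation, 8 had several and 17196 had none here. Symbols were updated through the Entrez identifier with RefSeq names (GRCh38.p14), which also gave gene spans and promoters. The sources used here do not name the build behind the array, so no probe is placed in the genome. Background was corrected by neqc (limma 3.58.1, R 4.3.3, normexp with negative controls inferred from the detection p-values, offset 16), followed by quantile normalization and log2. A probe was kept if 3 or more arrays detected it at a p-value under 0.05, which left 22260, and the probe with the highest mean stood for each symbol, which gave 17988 features. The model had a mean for each group and took in the 12 arrays together (limma, lmFit, eBayes, 8 residual and 7.18 prior degrees of freedom) for 5 comparisons, and adjusted p-values are Benjamini-Hochberg over all features. The model was tested on simulated data. The number of arrays limits the precision. Where no array of a group detected a gene, the fold is a bound against the lowest level among detected probes. Such a bound compares group means and leaves out their sampling error, so the true fold may be smaller. A gene given as a bound could pass the detection filter through its high group alone, and its call is then no independent support.

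The labels number the samples of each group. Deviations from the group means correlated between same-numbered arrays by 0.183, 0.159 and 0.208 for CDDP under shCTRL. These were over 0.1 for every pair, so the numbers may pair those arrays. The other comparisons each had a pair under 0.1. The model used no pairing in any comparison, so the p-values given for CDDP under shCTRL are unpaired. The replicate number entered as a block only among the alternatives below. The 9 genes, the 8 lists and the tests were chosen with earlier results of these data known. In each comparison up to 4 genes of a list are named, those called first and the larger changes first, along with the 5 genes nearest to CDH1 and to SNAI2. Named beyond this rule, after their values were seen, were the remaining genes of short counts (CD24, DSG2, SPINT1, DSC2, FBN1, COL6A1, SMAD6, SMAD7), EPCAM and the genes said to share the pattern of CDH1, and CRB3 and SPARC with CDDP. Listed genes with no probe were not analysed here.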

Additional observations from a re-analysis of the deposited data

How the results depend on the processing

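Of the 12 called differences of the 9 genes, 263 of 272 values under the alternatives kept their call, 9 lost it and 0 turned. All 9 losses were those of CDH2 given above. CDH1 and the tested probe of SNAI2 kept every call under the alternatives in which they were tested, and CDH1 was not tested where detection on all 12 arrays was required. The alternatives were no background correction, median scaling, the series matrix, no or a stricter detection filter, other rules for probes, a variance trend, array weights, the replicate block, only the groups compared, and each array left out.

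For IRF1 the difference between the shRNAs with CDDP passed without background correction (-0.73), from the series matrix (-0.77) and with a variance trend (-0.82), and ran from -1.08 to -0.59 with arrays left out. Its rise with CDDP under shIRF1 no longer passed with median scaling (0.79) or without a detection filter (0.78), and ran from 0.70 to 0.92 with arrays left out. With the replicate number as a block, the 3 members called in each pairwise comparison stayed 3, the feature counts were 1210, 835, 5226 and 4294 in the order above, and no call of the 9 genes or of IRF1 changed. Of 12 arrays, 10 correlated best with an array of their own number, a hint from the data and not from the design.

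Counts over all features moved more than those of the 9 genes. Median scaling took the 1051 and 692 called between the shRNAs without and with CDDP to 500 and 310, and the 4849 and 3960 called for CDDP to 2984 and 2228. With only the groups compared, the 692 became 329. The 12 features called in the interaction became 7 with median scaling, 5 with the stricter filter, 22 from the series matrix, 19 with array weights and 2 to 14 with arrays left out. With arrays left out the counts between the shRNAs ran from 585 to 1167 without and from 356 to 728 with CDDP. The cause of these shifts was not tested. The signal over background limits SNAI1, CDH3, ZEB1, ESRP1 and GRHL2, whose changes these arrays could not measure, and the size of the CDH1 differences, which reached 2.13 from 3.09 without CDDP when background was not corrected.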
